A study of Caenorhabditis elegans with 4 samples.

Results

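The oac genes of Caenorhabditis elegans encode predicted O-acyltransferases, proteins that cross the membrane many times and are placed in the acyltransferase-3 family with NRF-6. The group described here was taken by name. It holds every gene of the deposited count table whose WormBase name is oac or nrf followed by a number, which gave 58 genes (56 oac genes, nrf-5 and nrf-6) of 20392. Members were compared between wild-type and lsm-8 mutant larvae. The members were chosen by gene name, with no threshold on a measured value. The family itself was proposed with the differences between mutant and wild type in these 4 libraries in view. The calls and p-values below therefore describe single genes within a fit over all genes, and nothing is drawn from them about the family.

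Acyltransferases of this family are thought to move acyl groups onto small molecules, lipids or sugars at membranes, and the substrates of most worm members are not known to a degree that lets a role be named. The best known member, NRF-6, was found because mutants resist the muscle contraction in the nose that the drug fluoxetine causes, and its loss also leaves eggs pale through poor yolk transport. NRF-5 gives the same mutant traits but is a secreted protein that resembles lipid-binding proteins, so it shares the nrf name and not the enzyme family. The relatives NDG-4, RHY-1 and BUS-1 belong to the acyltransferase-3 family under other names.

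Synchronized larvae of the first stage (L1) were the source of the total RNA. They hatched for 16 hours in M9 buffer, were sorted by L1 size and absence of green fluorescence, and were then refed for 2.5 hours. The wild-type group was strain N2 (also called GW1), of Bristol origin, with 2 libraries. The mutant group, also with 2 libraries, came from strain GW1125, in which the lsm-8 allele xe17 on chromosome IV carries a red pharyngeal marker (myo2p::mcherry::unc54 3'UTR). The allele is kept over nT1[qIs51](IV;V), a balancer with a green marker made from a translocation between chromosomes IV and V, so the sort against green was used to obtain the larvae labelled lsm-8-/-, and wild-type larvae passed the same sort. LSM-8 belongs to the nuclear LSM2-8 ring, and the study asked how this ring and the exonuclease XRN-2 act on transcripts of silenced genes.

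Library totals ran from 50755251 to 101230177 counts, with both mutant libraries deeper than both wild-type libraries. A count of 3, taken as the floor, corresponded to 0.0563 and 0.0600 CPM for wild type and to 0.0293 and 0.0323 CPM for the mutant, which covers counting error only. CPM are counts scaled to a common library size, here the TMM library size. The targeted gene lsm-8 stood at 15.4 and 15.9 CPM in wild type and at 3.25 and 3.73 CPM in the mutant. The labels do not state whether the libraries of a genotype are separate cultures. The p-values reflect the spread between these libraries only, which may be technical. A gene was called higher or lower at a Benjamini-Hochberg adjusted p under 0.05 in edgeR's quasi-likelihood test over the 16771 genes that passed its filter on low counts. These calls took in 13.5% of genes as higher and 14.8% as lower.

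Most oac genes had low levels at this stage. Of the 58 members, 37 had a mean below 1 CPM over the 4 libraries, 15 lay between 1 and 5 CPM and 6 reached 5 CPM or more. The summed level of the oac genes was 90.2 and 91.5 CPM for wild type and 115.4 and 119.4 CPM for the mutant, whose sums were the higher ones. In each library, oac-14 and oac-46 together made up between 33.8% and 38.8% of that sum.

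Per kilobase of the gene width that the authors deposited, nrf-6 had the highest wild-type level of all members, 29.6 CPM per kb. It was followed by nrf-5 at 19.4, oac-14 at 8.26, oac-46 at 6.85 and oac-32 at 3.45 CPM per kb. Widths of members ran from 1462 to 2620 bases with a median of 2077.5, against a median of 1244 bases over the genes tested.

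The yolk and fluoxetine gene nrf-6 (WBGene00003813, chromosome II) stood at 76.5 and 76.1 CPM in wild type and at 73.7 and 74.0 CPM in the mutant. The mutant values were both slightly lower, and the difference was not called (log2 fold change -0.05, SE 0.06, edgeR adjusted p = 0.607), with a sign that changed when scaled by library totals. Its partner gene nrf-5 (WBGene00003812, chromosome V) stood at 36.8 and 38.1 CPM in wild type and at 43.2 and 45.2 CPM in the mutant. Levels of nrf-5 thus rose 1.18-fold, from 37.4 ± 0.917 to 44.2 ± 1.40 CPM (SD, n = 2 libraries each; log2 fold change 0.24, SE 0.06, edgeR adjusted p = 0.00906). The call of nrf-5 was lost without mutant replicate 2 (adjusted p = 0.0852).

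The member with the third highest wild-type level, oac-14 (WBGene00008602), the only one on the X chromosome, did not give a stable difference. It stood at 18.5 CPM in each wild-type library, and the mutant libraries had 13.6 and 19.6 CPM, so 1 mutant library lay below wild type and the other above. Its log2 fold change was -0.16 (SE 0.17, edgeR adjusted p = 0.570). Without mutant replicate 2 it was called lower (-0.45, adjusted p = 0.000662), and without mutant replicate 1 its sign turned (0.083, adjusted p = 0.650).

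Among the members tested, 11 were called higher in the mutant (10 oac genes and nrf-5), 1 was called lower and 39 were not called. The filter kept 51 of the 58 members. As shares of the members tested these are 21.6% higher and 1.96% lower, beside the 13.5% and 14.8% of all genes given above. The median log2 fold change was 0.32 over the members tested and -0.01 over all genes tested. The filter can pass a weak gene on its level in the libraries of either group alone. These figures therefore describe the members that passed and not the whole family. DESeq2 gave an adjusted p to 27 of the 51 and called 8 higher and 0 lower, beside 13.7% and 14.3% of all genes with one. At an unadjusted p under 0.05 edgeR had 12 higher and 2 lower. The share of all genes at that threshold was not computed, so nothing is drawn from these counts. RNA was taken from whole larvae, so more RNA per cell and more cells of a kind that express a gene cannot be told apart.

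**Figure D1:**
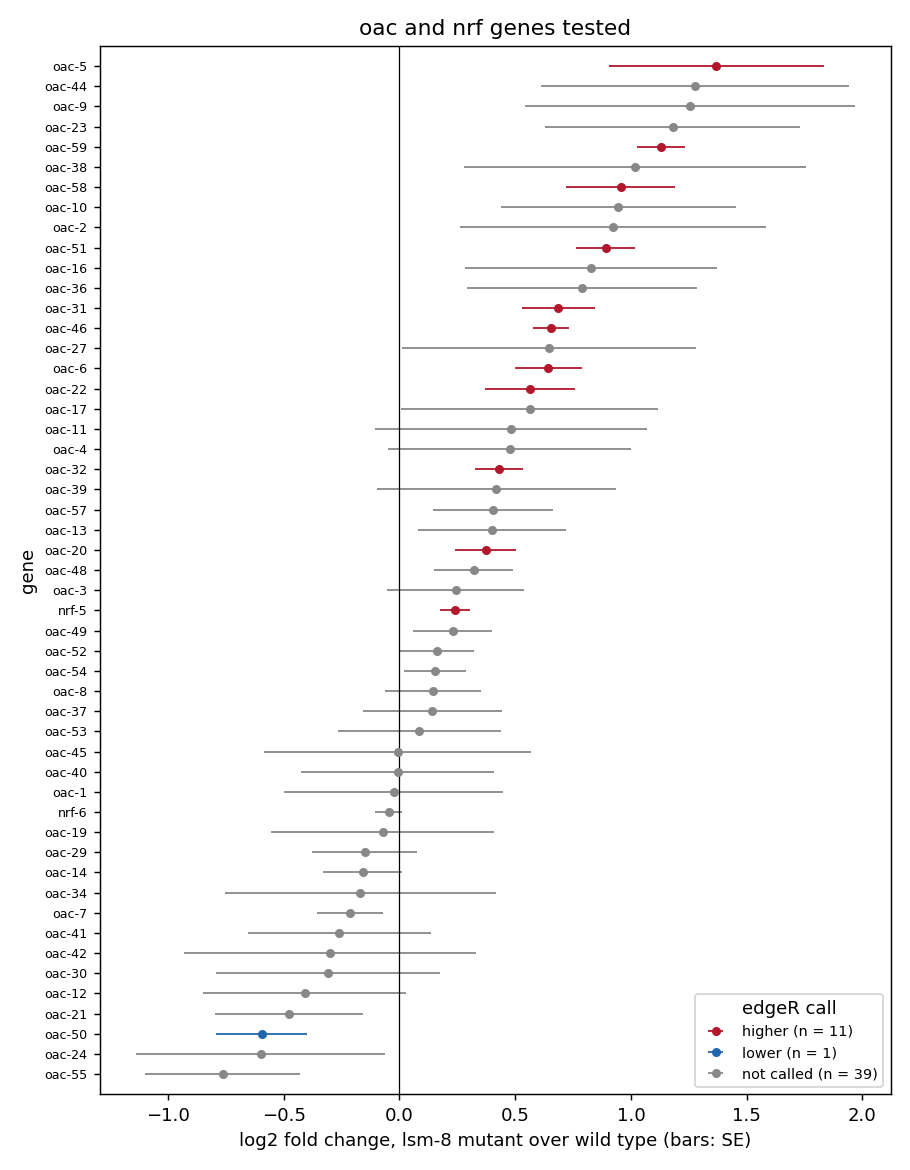
Log2 fold change of each tested oac and nrf gene, mutant over wild type, with bars for the standard error (n = 2 libraries per group) and colour for the edgeR call. The 11 genes called higher lie between 0.24 (nrf-5) and 1.37 (oac-5), oac-50 is the 1 called lower, and many uncalled genes have wide bars.

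The member called higher with the smallest adjusted p was oac-59 (WBGene00016585, chromosome IV). It stood at 5.29 and 5.38 CPM in wild type and at 11.8 and 11.6 CPM in the mutant, and both mutant values lay well above both wild-type values. This is a 2.19-fold rise (log2 fold change 1.13, SE 0.10, edgeR adjusted p = 1.15e-07). It kept its call in all 13 re-runs with another scaling, filter, test, block or length correction or with a library left out, with log2 fold changes from 1.11 to 1.18.

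The most abundant oac gene that rose was oac-46 (WBGene00011768, chromosome II). It went from 15.9 and 17.03 CPM in wild type to 25.4 and 26.4 CPM in the mutant, without overlap of the groups. The rise was 1.57-fold (log2 fold change 0.65, SE 0.08, edgeR adjusted p = 3.13e-06). In the WBcel235 annotation its exons overlap those of agxt-1 on the opposite strand, and counts of agxt-1 fell over the same libraries, from 51.8 and 47.3 to 34.6 and 36.5 CPM (log2 fold change -0.48, SE 0.07). Whether counting used strand is not known from the labels or headers, and reads of such a pair may then be mixed.

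Levels of oac-51 (WBGene00020976, chromosome IV) were 3.36 CPM in each wild-type library, with 6.52 and 5.93 CPM in the mutant. The mutant libraries were both higher, by 1.85-fold (log2 fold change 0.89, SE 0.13, edgeR adjusted p = 3.14e-05). Levels of oac-32 (WBGene00018708, chromosome V) went from 7.002 and 7.33 CPM to 9.497 and 9.82 CPM, a smaller rise of 1.35-fold (0.43, SE 0.10, edgeR adjusted p = 0.00347) that again left the groups apart.

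The less abundant genes oac-6, oac-31 and oac-58 also kept their calls in each of those 13 re-runs. Levels of oac-6 (WBGene00007833, chromosome V) were 2.59 and 3.04 CPM in wild type and 4.26 and 4.53 CPM in the mutant (1.56-fold, edgeR adjusted p = 0.00220). Levels of oac-31 (WBGene00018707, chromosome V) were 2.08 and 2.26 CPM in wild type and 3.31 and 3.68 CPM in the mutant (1.61-fold, edgeR adjusted p = 0.00256). Levels of oac-58 (WBGene00019580, chromosome IV) were 0.695 and 0.739 CPM in wild type and 1.41 and 1.37 CPM in the mutant (1.94-fold, edgeR adjusted p = 0.00487). In each of these genes both mutant libraries were above both wild-type libraries.

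The calls of oac-5, oac-20 and oac-22 were less firm. Levels of oac-22 (WBGene00018142, chromosome IV) went from 1.26 and 1.32 CPM to 1.97 and 1.84 CPM (log2 fold change 0.57, SE 0.19, edgeR adjusted p = 0.0356). Levels of oac-20 (WBGene00009488, chromosome V) went from 4.04 and 3.997 CPM to 5.59 and 4.82 CPM (0.37, SE 0.13, edgeR adjusted p = 0.0405). The weakest of them, oac-5 (WBGene00007829, chromosome V), had 8 reads in each wild-type library and 46 and 33 reads in the mutant libraries, or 0.150, 0.160, 0.449 and 0.356 CPM. Its fitted rise of 2.58-fold was the largest among members called and also the least precise (log2 fold change 1.37, SE 0.47, edgeR adjusted p = 0.0338). The calls of oac-5 and oac-22 were lost without any 1 of the 4 libraries (edgeR adjusted p from 0.0794 to 0.246 for oac-5 and from 0.0586 to 0.149 for oac-22). That of oac-20 held without mutant replicate 2 (0.0206) and was lost when mutant replicate 1 (0.284) or either wild-type library was left out (0.0668 without replicate 1, 0.0789 without replicate 2). It was also lost with the gene length correction (edgeR adjusted p = 0.0590) and with DESeq2 (adjusted p = 0.0997), which did not call oac-22 either (adjusted p = 0.127).

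The single member called lower was oac-50 (WBGene00020864, chromosome V), at 2.06 and 1.78 CPM in wild type and 1.32 and 1.23 CPM in the mutant. Both mutant values were below both wild-type values (log2 fold change -0.59, SE 0.20, edgeR adjusted p = 0.0296). The call was lost without wild type replicate 1 (0.160), mutant replicate 1 (0.0567) or mutant replicate 2 (0.111), and with DESeq2 (adjusted p = 0.108). Another chromosome V gene, oac-55, had 0.807 and 0.580 CPM in wild type and 0.439 and 0.377 CPM in the mutant, which was not called (-0.76, SE 0.33, edgeR adjusted p = 0.0990).

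**Figure D2:**
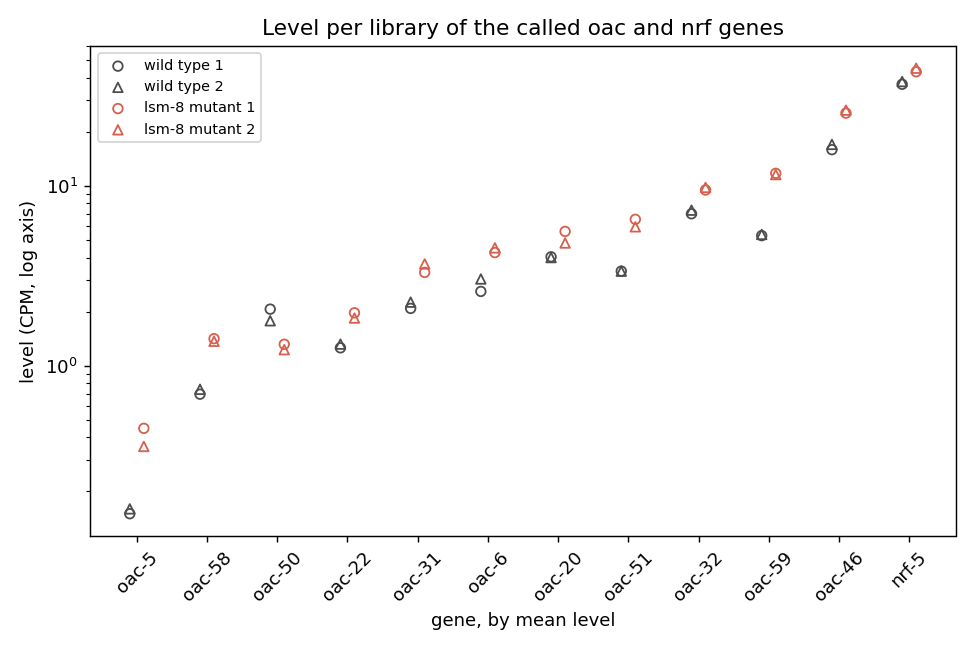
Level in each library (CPM, log axis) of the 12 called members, ordered by mean level, with grey marks for the wild-type libraries and red marks for the mutant libraries. The groups are apart for each gene, and oac-50 is the 1 gene whose mutant marks lie lower.

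Level set how much could be seen. Of the 6 members at 5 CPM or more, 4 were called higher and 0 lower, where 18.6% of all genes at that level were called higher and 20.4% lower. Between 0.5 and 5 CPM, 6 of 21 members were called higher and 1 lower, beside 9.22% of genes higher and 11.4% lower. Below 0.5 CPM, 24 of 31 members passed the filter and 1 was called higher and 0 lower, beside 2.97% and 1.8% of genes. The median standard error of the log2 fold change was 0.09 for members at 5 CPM or more and 0.54 for those tested below 0.5 CPM, so a 2-fold change would often not be detectable in the latter. Below 0.5 CPM the median log2 fold change was 0.48 over the members tested and 0.12 over all genes tested. Both medians cover only genes that passed the filter. A weak gene can pass on its level in either group alone, as oac-44 or oac-23 can on its mutant level. The medians may therefore differ from those over all genes at that level, and nothing is drawn from them.

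**Figure D3:**
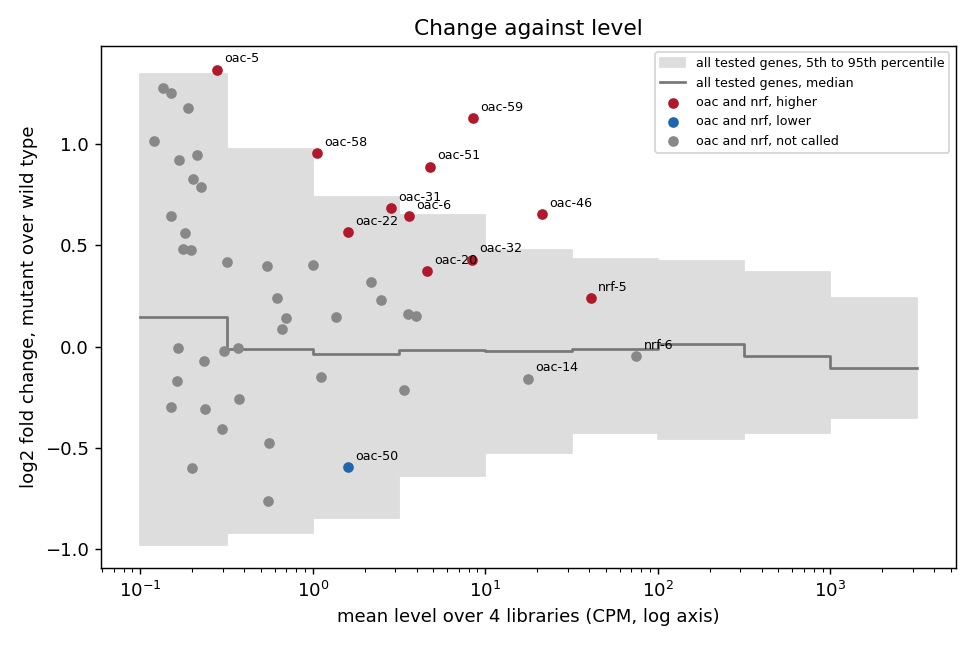
Log2 fold change against mean level over the 4 libraries (CPM, log axis) for the tested members, with the 5th to 95th percentile (band) and the median (line) of all tested genes in steps of level. The genes oac-59, oac-51, oac-46, oac-58 and oac-5 lie above the band, and nrf-6 and oac-14 lie near its middle.

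The 39 uncalled members had log2 fold changes from -0.76 to 1.28, with 23 above and 16 below 0. Many rest on a handful of reads. The gene oac-44, at the upper end, had 3 and 5 reads in the wild-type libraries and 15 and 22 in the mutant libraries. Counts of oac-23 were 7 and 5 in wild type and 31 and 21 in the mutant. Of the better covered ones, oac-48 stood at 1.95 and 1.94 CPM in wild type and at 2.47 and 2.39 CPM in the mutant, with no overlap of the groups but no call (log2 fold change 0.32, SE 0.17, edgeR adjusted p = 0.177). Over the members tested, both mutant libraries lay above both wild-type libraries in 24 and below in 7, where the same was true of 30.9% and 31.9% of all genes tested.

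The 7 members that did not pass the filter had at most 19 reads in any library. They are oac-15, oac-25, oac-26, oac-28, oac-35, oac-43 and oac-56. No read was counted for oac-25 or oac-28 in any of the 4 libraries. Both are listed with the same width of 2022 bases and lie close together on chromosome I. Whether reads of these genes were dropped because they match more than 1 copy could not be checked from the counts.

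Members were spread unevenly over the chromosomes. There were 22 on chromosome V, 15 on I, 13 on IV, 7 on II, 1 on X and 0 on III. All 15 members of chromosome I had low mean levels of 0.540 CPM or less, and 0 of the 10 tested were called in either direction. Of that chromosome's genes 9.55% were called higher and 17.4% lower, but of all genes below 0.5 CPM only 2.97% and 1.8%. On chromosome IV, 4 of 12 tested members were called higher (oac-22, oac-51, oac-58 and oac-59), on V 6 of 21 and on II 1 of 7. Chromosome IV, which carries the lsm-8 allele, had the largest share of genes called higher of the 6 chromosomes, 21.8%, beside 14.7% on V and 11.1% on II. The part of this chromosome-wide shift in the members' changes was not tested.

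Several oac genes lie side by side. With no other protein-coding gene between them in the WBcel235 gene order, 21 members formed 9 runs of neighbours, and 4 of these runs held a called gene. In the run oac-59, oac-57 and oac-58 on chromosome IV, the outer genes were called higher while oac-57, between them, stood at 1.01 and 0.719 CPM in wild type and at 1.31 and 0.991 CPM in the mutant. The groups of oac-57 overlapped, and it was not called (log2 fold change 0.41, SE 0.26, edgeR adjusted p = 0.272). Without wild type replicate 1 its log2 fold change was 0.68, and without wild type replicate 2 it was 0.18.

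Next to oac-51, the gene oac-52 on the opposite strand stood at 3.90 and 2.82 CPM in wild type and 3.54 and 4.01 CPM in the mutant. The mean wild-type level of both genes was 3.36 CPM, and the groups overlapped for oac-52 (log2 fold change 0.16, SE 0.16, edgeR adjusted p = 0.499) and not for oac-51. In the run oac-23, oac-22 and oac-21, the middle gene was called higher, and oac-21 went from 0.657 and 0.639 CPM to 0.497 and 0.431 CPM without a call (-0.48, SE 0.32). Exons of oac-21 overlap F56D6.9 on the same strand, and that gene fell from 15.9 and 12.6 CPM to 2.83 and 2.11 CPM (-2.52, SE 0.14). The neighbours oac-31 and oac-32 on chromosome V both rose. Differences in response within these runs were not tested.

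**Figure D4:**
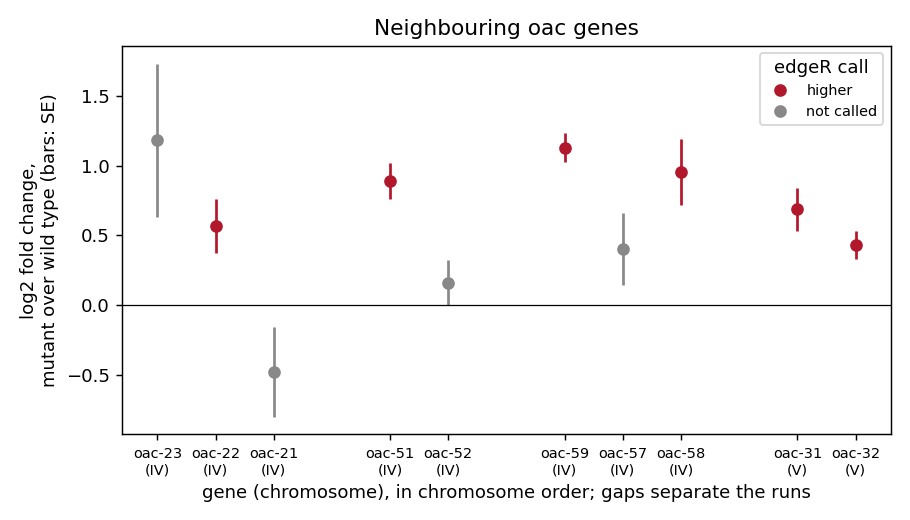
Log2 fold change (mutant over wild type, bars for the standard error, n = 2 libraries per group) of the oac genes in the 4 runs of neighbours that hold a called gene, in chromosome order. In 3 of the runs called genes stand beside uncalled ones, such as oac-51 at 0.89 beside oac-52 at 0.16, and in the run of oac-31 and oac-32 both genes are called.

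Other protein-coding genes that flank the members were counted beside the 13.5% of all genes called higher and 14.8% lower. Beside the 11 members called higher lay 10 tested protein-coding flanking genes, of which 0 were called higher and 1 (agxt-1) lower, with a median log2 fold change of -0.07. Beside the uncalled members, 9 of 39 flanking genes were called higher and 5 lower, with a median of 0.18. Level was not matched between these sets, and their difference was not tested. Higher calls took in 2.97% of all genes under 0.5 CPM, 9.22% from 0.5 to 5 CPM and 18.6% at 5 CPM or more. For lower calls the shares were 1.8%, 11.4% and 20.4%. Among the flanking genes of uncalled members are rhy-1, beside oac-54 and called higher, and bus-1, beside oac-41. Both are relatives of the acyltransferase-3 family under other names. Of the 10, C42C1.8 also overlaps oac-59 on the opposite strand, and it stood at 2.08 and 2.46 CPM in wild type and 2.68 and 2.86 CPM in the mutant, which was not called (log2 fold change 0.29, SE 0.16). The gene fbxa-99, which overlaps oac-20 on the opposite strand, was not called either (-0.10, SE 0.21). In all, 10 members have exons that overlap another counted gene.

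Among relatives of the acyltransferase-3 family with other names, rhy-1 and ndg-4 were called higher and bus-1 was not called. The gene rhy-1, a negative regulator of the hypoxia factor HIF-1, stood at 3.21 and 3.56 CPM in wild type and at 8.68 and 11.7 CPM in the mutant (log2 fold change 1.59, SE 0.15, edgeR adjusted p = 2.67e-07). The yolk and fluoxetine gene ndg-4 stood at 25.8 and 25.5 CPM in wild type and at 30.3 and 28.6 CPM in the mutant. Its rise was called (log2 fold change 0.20, SE 0.07, edgeR adjusted p = 0.0448), but the call held in only 5 of 13 re-runs. It was lost with no filter, the replicate block, the gene length correction, DESeq2 and without any 1 of the 4 libraries. The log2 fold changes of ndg-4 ran from 0.15 to 0.25 over these re-runs. The gene bus-1, which affects the cuticle surface, stood at 1.37 and 1.76 CPM in wild type and 1.73 and 1.63 CPM in the mutant, with overlapping groups and a log2 fold change of 0.10 (SE 0.20) that turned to -0.069 without wild type replicate 1.

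Lists of 2 other acyltransferase families were read beside the same 13.5% of all genes called higher and 14.8% lower, or 18.6% and 20.4% of those at 5 CPM or more. Of 9 genes of the membrane-bound O-acyltransferase (MBOAT) family, a separate family of enzymes, 0 rose and 3 fell. The largest fall was that of mboa-1, from 22.5 and 21.9 CPM to 12.8 and 13.4 CPM (log2 fold change -0.76, SE 0.08, edgeR adjusted p = 7.27e-07). Of 12 tested acl genes, which encode predicted acyltransferases of glycerolipid synthesis, 0 rose and 3 fell, with acl-11 going from 24.6 CPM in both wild-type libraries to 19.0 and 18.6 CPM (-0.39, SE 0.07). The medians were -0.19 for the MBOAT list and -0.08 for the acl list, beside -0.01 over all genes tested. Their difference from the oac genes was not tested.

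Yolk genes, whose products reach the eggs of adults with the help of NRF-6 and NRF-5, were low in these larvae. Of 7 genes (vit-1 to vit-6 and the receptor rme-2), 4 passed the filter and 2 were called higher. Higher calls took in 13.5% of all genes and 9.22% of those between 0.5 and 5 CPM, where the means of vit-2 and vit-6 lie. The receptor gene rme-2 stood at 5.89 and 5.62 CPM in wild type and at 6.52 and 7.06 CPM in the mutant, and was not called. The gene vit-2 stood at 0.488 and 0.2998 CPM in wild type and at 1.05 and 0.927 CPM in the mutant (log2 fold change 1.32, SE 0.31), and vit-6 rose by 0.86 (SE 0.23). In the pathway of RHY-1 and HIF-1, 2 of 9 genes rose and 5 fell, beside 13.5% and 14.8% of all genes. At 5 CPM or more, where the means of these 9 lie, the shares were 18.6% and 20.4%. Besides rhy-1, phy-2 rose by 0.53 (SE 0.06). The sulfide oxidation gene sqrd-1 went from 23.9 and 25.3 CPM to 5.82 and 7.75 CPM (-1.86, SE 0.11), and nhr-57 fell by 0.83 on the log2 scale (SE 0.09). Smaller falls were called for egl-9 (-0.41, SE 0.06), cysl-1 (-0.35, SE 0.06) and cysl-2 (-0.19, SE 0.06).

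Some tissue markers were called as well, beside 13.5% of all genes called higher and 14.8% lower (18.6% and 20.4% at 5 CPM or more). Of 11 intestinal markers 5 were called higher and 1 lower, with summed levels of 10516 and 10578 CPM in wild type and 11629 and 11083 CPM in the mutant. Of 9 epidermal markers 5 were called higher and 0 lower, with sums of 160.5 and 170.6 CPM against 207.3 and 197.3 CPM. Higher calls numbered 4 of 6 in the pharynx list, 4 of 5 in the body wall muscle list, 3 of 8 in the neuron list and 0 of 7 in the germline list, where 1 was lower. Each listed marker of these 6 lists had more than 3 reads in at least 1 library. In the body wall muscle list unc-54 was called higher (log2 fold change 0.31, SE 0.06). So were myo-3 (0.46, SE 0.06), unc-15 (0.33, SE 0.06) and hlh-1 (0.30, SE 0.09), and unc-27 was not called (-0.07, SE 0.05). The red marker of the mutant allele carries the unc54 3'UTR, and whether its reads were counted for unc-54 was not tested. The part of tissue makeup in the changes of the oac genes was not tested.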

How the data were processed

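Whole-number read counts per gene were deposited by the authors without normalization for 4 libraries. The authors also deposited a table of log2 values, each equal to the log2 of the count scaled to the mean library total plus 8 (largest deviation 5.33e-14), and a gene width in bases, used here as the length in CPM per kb. The submitters' processing notes name Bowtie, edgeR 3.24.0 and the build ce10 without their roles. How reads were counted, against which annotation and with or without strand is not given in the sources used here. Names were found for 19182 of 20392 identifiers. Chromosomes, gene order and overlaps come from WBcel235, another build, so no coordinate is given.

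Genes were tested with edgeR 4.0.16 in R 4.3.3 (TMM, filterByExpr, robust quasi-likelihood F-test, mutant against wild type, no covariate). A run on simulated counts changed far fewer genes than were called here, so it does not give the error rate in these data. Standard errors derive from the F statistic. Alternatives used DESeq2 1.42.0, limma 3.58.1 on the deposited log2 values, other scalings and filters, a length correction, a replicate block and each library left out. Values per library are given for nrf-5, nrf-6, up to 10 called members with the largest rises and up to 10 with the largest falls, the 5 highest wild-type levels per kb, and the 2 largest uncalled changes at a mean of at least 1 CPM. The genes oac-21, oac-23, oac-44, oac-52 and oac-55 were added after their values were seen. From the related lists, bus-1, ndg-4 and the called genes with the largest rise and fall were named. Added after their values were seen were phy-2, vit-6, nhr-57, egl-9, cysl-1, cysl-2, rme-2 and unc-54. The markers myo-3, unc-15, hlh-1, unc-27, asp-1, elt-2 and ftn-1 were added in the same way. The members and lists were chosen with earlier results of these data known. Of 14 acl genes listed, 13 were found in the table and 12 tested.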

Additional observations from a re-analysis of the deposited data

How the results depend on the processing

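Between 8 and 11 members were called higher in 13 re-runs with one setting changed, against 11, and each other scaling kept 11 higher and 1 lower. The count of members called lower went from 1 to 0 with DESeq2 and with the replicate block, and was 0 to 1 when single libraries were left out. The replicate block called 8 members higher, losing oac-5, oac-20 and oac-22, and 3655 genes in all, against 4737. The labels do not say that replicate numbers pair the libraries, and same-numbered libraries did not deviate together (r = -0.06 over 16771 genes, -0.11 over the 9621 at 5 CPM or more). A crossed pairing, chosen after seeing the data, called 5652 genes, with 11 members higher and 1 lower. Scaling by library totals called 2917 genes higher and 1907 lower and the deposited log2 values 2902 and 1879, against 2258 and 2479. Direction turned for nrf-6 when scaled by library totals or taken from the deposited log2 values (0.0044 in each). With single libraries left out, the log2 fold change ran from -0.45 to 0.083 for oac-14 and from -0.069 to 0.29 for bus-1. The cause of these differences was not tested. The members' median log2 fold change stayed between 0.23 and 0.47. Depth limits the members below 0.5 CPM most.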
